A study of Arabidopsis thaliana with 24 samples.

Results

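The double mutant mkk1/mkk2 was set against the wild-type accession Col-0 of Arabidopsis thaliana, both 24 h after BTH, in 3 arrays of each. These 6 arrays, out of 24 in the series, were chosen by sample title and not by any measured value. Each array is an ATH1 oligonucleotide array hybridised with RNA of whole plants grown in soil under short days. BTH, or benzothiadiazole, is a salicylic acid analogue sprayed to induce resistance. For the mkk1/mkk2 plants the labels state a spray of 100 µM BTH. They give no allele for the double mutant, while the single mutants mkk1 and mkk2 are SALK_027645 and Garlic_511-HO1. Col-0 carries no mutation named in the labels. For the Col-0 plants the title and source name say 24 h after BTH, whereas the treatment note of the same samples reads control treatment. The description field calls all 24 samples untreated Col-0, the mkk1/mkk2 samples included. Every value below therefore rests on title and source name for the genotype and for the BTH label of Col-0. No mock-sprayed plants are among the samples. Untreated mkk1/mkk2 and Col-0, and the single mutants 24 h after BTH, are used below only to place the comparison. The plant age and whether replicates were separate plants are not given in the sources used here, so p-values measure only the spread between these samples.

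MKK1 and MKK2 are closely related MAP kinase kinases. They act between the kinase MEKK1 and the MAP kinase MPK4, and loss of this cascade is known to switch on defence, with dwarfed growth, high salicylic acid and cell death. Salicylic acid drives the genes of acquired resistance, and BTH drives the same genes when sprayed on wild-type plants. The comparison therefore asks which differences between the genotypes are still present once both have been labelled as exposed to BTH. MKK1, MKK2, MEKK1, MPK4, PR1, PR2, PR5, ICS1, PAD4, EDS1, NPR1 and WRKY70 had no probe set assigned to a single gene and were not analysed here, so no mutated gene was at hand to check the genotype labels. In whole plants, a change in the share of a cell type and a change in RNA per cell cannot be told apart.

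Levels are log2 RMA values, a scale on which 1 unit is a 2-fold difference, and differences are mkk1/mkk2 minus Col-0 in these units with the standard error from limma. A probe set was called when its p-value, adjusted over 22746 probe sets, was under 0.05. The 3 mkk1/mkk2 arrays correlated at r = 0.992 to 0.996 across probe sets and the 3 Col-0 arrays at 0.966 to 0.991, with array medians between 5.65 and 5.78. Array letters are those after BTH unless the array is called untreated. Col-0 array A had the lowest mean correlation with its group, 0.975, and untreated mkk1/mkk2 array A, used in the comparison of untreated plants, had 0.933. The GAPDH control's 3' minus 5' difference, a sign of RNA integrity, was 0.14, 0.52 and 0.51 in mkk1/mkk2 and 0.60, 0.73 and 0.65 in Col-0, without overlap. The actin control's difference was 2.98, 3.51 and 3.70 in mkk1/mkk2, against 2.76, 3.0 and 3.11 in Col-0. The part of RNA integrity in the results was not tested.

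After BTH the genotypes differed in 4918 of 22746 probe sets (21.6%), of which 2591 were higher (11.4%) and 2327 lower (10.2%) in mkk1/mkk2. Large differences were mostly rises. A difference of at least 4-fold was found in 415 probe sets that rose and 141 that fell, and one of at least 16-fold in 47 that rose and 4 that fell. The median over all probe sets was -0.05. With each array centred on its own median the calls were 2210 higher and 2918 lower, so the balance between rises and falls depends on the scaling. Without 3 arrays that stood apart (Col-0 array A after BTH, untreated mkk1/mkk2 array A and untreated mkk2 array B), as an earlier look at these data named them, 5681 probe sets were called. The 3 arrays of one genotype lay entirely above or below those of the other in 8921 probe sets (39.2%), with mkk1/mkk2 above in 4089 (18%) and below in 4832 (21.2%).

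The largest rise belonged to OSM34 (AT4G11650), an osmotin-like protein of the PR5 family. Its level was 11.65, 11.27 and 10.87 on the mkk1/mkk2 arrays and 4.23, 4.06 and 3.89 on the Col-0 arrays, a difference of 7.20 ± 0.22 (147-fold, adjusted p = 2.1e-14). In Col-0 it stayed low on every array. CCOAMT (AT1G67980), annotated as a caffeoyl-CoA methyltransferase, was at 10.74, 10.67 and 10.59 in mkk1/mkk2 and 4.80, 4.96 and 4.45 in Col-0, a difference of 5.93 ± 0.21. GH3.3 (AT2G23170), which joins auxin to amino acids, was at 9.55, 10.10 and 10.05 in mkk1/mkk2 and 3.92, 4.08 and 4.26 in Col-0, a difference of 5.81 ± 0.36. The defensin gene PDF1.4 (AT1G19610), coding for a small antifungal peptide, lay between 9.58 and 10.07 in mkk1/mkk2 and was at 5.28, 5.22 and 4.67 in Col-0, a difference of 4.83 ± 0.29. For all of these genes the lowest mkk1/mkk2 array lay far above the highest Col-0 array, though the naming rule required arrays without overlap.

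Among the 12 largest rises was also AT4G33150, annotated as lysine-ketoglutarate reductase/saccharopine dehydrogenase, a bifunctional enzyme of lysine breakdown, which rose by 4.45 ± 0.39. The other 7 carry only a locus name in the annotation. AT5G39520 rose by 6.03 ± 0.29 and AT1G30700 by 5.78 ± 0.34. AT2G44240, AT1G05340, AT2G31945 and AT2G37750 rose by 5.12, 5.04, 4.80 and 4.78. AT3G02480 varied most among the mutant arrays, at 9.85, 6.99 and 8.55 in mkk1/mkk2 against 4.05, 3.61 and 3.83 in Col-0, a difference of 4.63 ± 0.48. Even its lowest mutant array lay above all 3 Col-0 arrays, as the naming rule required.

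**Figure D1:**
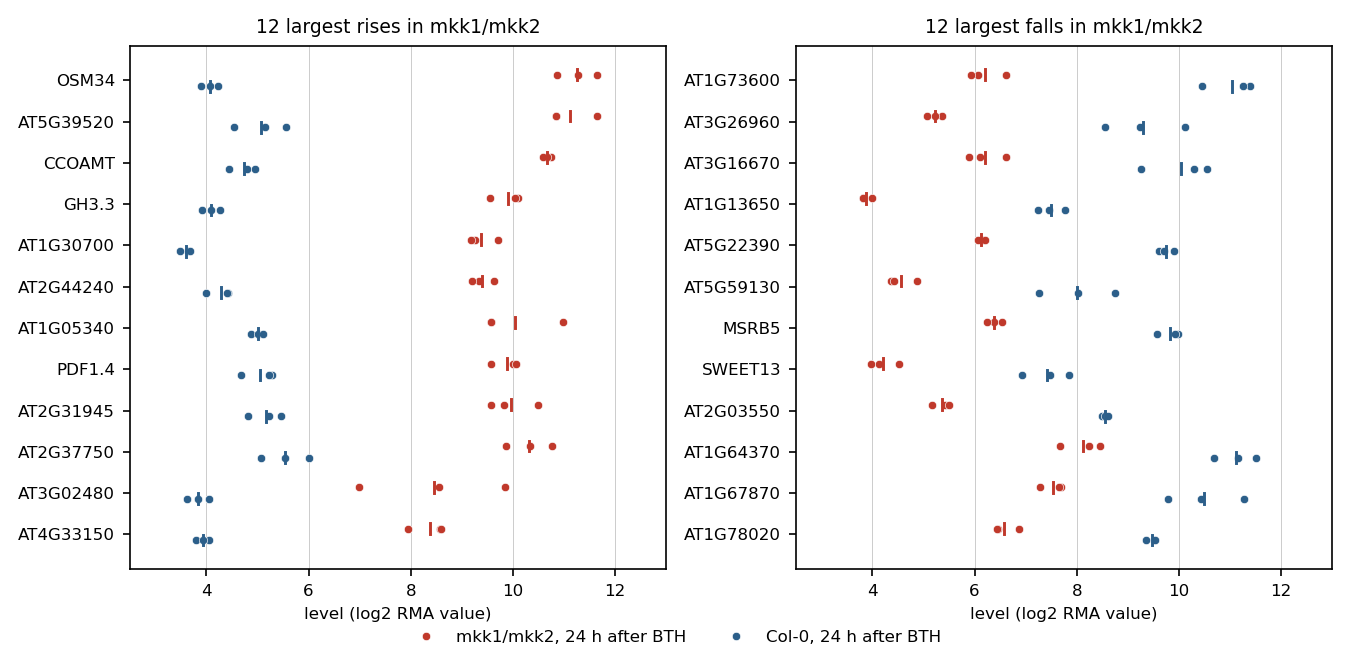
Level (log2 RMA value, x axis) of the 12 genes with the largest rises (left) and the 12 with the largest falls (right) on the 3 mkk1/mkk2 arrays (red) and the 3 Col-0 arrays (blue) 24 h after BTH; points are arrays and vertical ticks are means. The genotypes do not overlap in any of the 24 genes, which the naming rule required, and AT3G02480 has the widest spread in mkk1/mkk2, from 6.99 to 9.85.

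Falls were smaller. The largest was that of AT1G73600, at 6.06, 6.61 and 5.92 in mkk1/mkk2 and 10.45, 11.40 and 11.26 in Col-0, a difference of -4.84 ± 0.31 (28.6-fold lower, adjusted p = 7.6e-10). MSRB5 (AT4G04830), a methionine sulfoxide reductase that repairs oxidised methionine in proteins, was at 6.38, 6.53 and 6.24 in mkk1/mkk2 and 9.57, 9.99 and 9.93 in Col-0, a difference of -3.45 ± 0.18. SWEET13 (AT5G50800), a sucrose exporter of leaf veins, was at 4.52, 4.13 and 3.97 in mkk1/mkk2 and 6.92, 7.47 and 7.85 in Col-0, a difference of -3.21 ± 0.42. Col-0 held all 3 genes well above every mutant array, though the naming rule required arrays without overlap. The other 9 carry only locus names. AT3G26960, AT3G16670, AT1G13650, AT5G22390 and AT5G59130 fell by 4.09, 3.83, 3.62, 3.61 and 3.46, and AT2G03550, AT1G64370, AT1G67870 and AT1G78020 fell by 3.19, 2.98, 2.96 and 2.89.

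Genes linked to salicylic acid were mostly higher in mkk1/mkk2. Of the 5 measured genes in this list 4 rose and 1 did not pass the test. Their median difference was 1.22, beside -0.05 over all probe sets. With 1 probe set per gene, 9.24% of 13355 genes were called higher and 10% lower, the background against which this and the following list counts stand. The lists were chosen with earlier results of these data known, so a count above the background describes the list and is no test of it. CHI (AT2G43570), annotated as a chitinase, was at 12.52, 12.17 and 12.11 in mkk1/mkk2 and 8.84, 8.77 and 9.50 in Col-0, a difference of 3.23 ± 0.28 (9.38-fold, adjusted p = 5.4e-08). UGT76B1, a glucosyltransferase acting on salicylic acid and isoleucic acid, rose by 2.28 ± 0.35. SAG101, a lipase-like partner of the immune regulator EDS1, rose by 1.22 ± 0.29. AT5G52810 rose by 0.68 ± 0.23 (adjusted p = 0.042), and with any 1 of the 6 arrays left out its adjusted p was above the threshold, up to 0.117. GRX480 (AT1G28480), a glutaredoxin that salicylic acid induces, was at 9.83, 9.97 and 9.64 in mkk1/mkk2 and 9.60, 9.65 and 8.92 in Col-0. The GRX480 difference was 0.42 ± 0.23 (adjusted p = 0.23), and the highest Col-0 array lay just above the lowest mutant array.

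In the list of immune signalling from the cell surface, 4 of 9 measured genes rose and 5 did not pass, with a median of 0.79. SBT3.3, a subtilisin-like protease linked to immune priming, was at 6.78, 7.06 and 6.93 in mkk1/mkk2 and 3.78, 3.63 and 4.07 in Col-0, a difference of 3.1 ± 0.20. BIK1, the cytoplasmic kinase that passes on signals from pattern receptors, was at 9.15, 9.06 and 9.08 in mkk1/mkk2 and 5.95, 6.67 and 6.71 in Col-0, a difference of 2.65 ± 0.28. Neither gene had overlapping arrays. The S-domain receptor kinase SD1-29 rose by 2.15 ± 0.26. RING1, a RING-finger ubiquitin ligase, rose by 0.95 ± 0.31 (adjusted p = 0.032), with 11.97, 12.14 and 12.03 in mkk1/mkk2 and 10.48, 11.25 and 11.55 in Col-0. Without Col-0 array A, the lowest of the 6, the RING1 difference was 0.65 with an adjusted p of 0.198, and leaving out any other of these arrays except Col-0 array C also took it past the threshold.

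Of 2 measured genes in the MAP kinase list, ATMPK8, a MAP kinase, fell by 0.62 ± 0.17. Fitted to the 12 Col-0 and mkk1/mkk2 arrays alone, ATMPK8 had an adjusted p of 0.0765. Among calcium sensors 3 of 7 measured genes rose and 4 did not pass. These were the calmodulin-like proteins CML41 (2.64 ± 0.40), CML37 (2.46 ± 0.25) and CML43 (1.43 ± 0.24). Defensins and thionins, small cysteine-rich peptides that act against microbes, gave 4 rises and 1 fall among 15. Besides PDF1.4, LCR69 rose by 1.74 ± 0.45 and the thionin THI2.2 by 1.27 ± 0.26, while LCR68 fell by 1.31 ± 0.24. With the replicate letters as a block in a fit of only the groups compared, THI2.2 had an adjusted p of 0.0538. LCR69 spread widely in Col-0, at 11.46, 11.37 and 11.73 in mkk1/mkk2 against 10.97, 9.83 and 8.54 in Col-0. Its adjusted p was 0.0504 without Col-0 array C, where the difference was 1.12. Of 4 jacalin-like lectins, carbohydrate-binding proteins, 3 rose, namely JAL34 (2.81 ± 0.25), JAL33 (2.70 ± 0.28) and JAL22 (1.88 ± 0.47).

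Genes of jasmonate and ethylene, hormones whose branch often opposes salicylic acid, split. Of 6 measured genes 1 rose, 2 fell and 3 did not pass. PDF1.2 (AT5G44420), the usual marker of the branch, was at 5.75, 5.58 and 5.47 in mkk1/mkk2 and 5.39, 5.74 and 5.56 in Col-0, a difference of 0.04 ± 0.39. Its arrays overlapped fully, while in untreated plants it differed by 1.10 (adjusted p = 0.036). PDF1.2b did not pass at 0.90 ± 0.36 (adjusted p = 0.082), though its mkk1/mkk2 arrays all lay above those of Col-0. JMT, which methylates jasmonic acid, was at 3.68, 3.38 and 3.59 in mkk1/mkk2 and 4.74, 5.18 and 6.12 in Col-0, a difference of -1.80 ± 0.36. The transcription factor ORA47 fell by 1.09 ± 0.36 (adjusted p = 0.036). Leaving out any 1 array of these 6 other than Col-0 array C took ORA47 past the threshold, to an adjusted p of up to 0.152. The gene of this list that rose was JAL34, named above with the lectins.

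Autophagy genes leaned upward. Of 10 measured genes 5 rose and 5 did not pass, and the differences ran from 0.17 to 1.97 with a median of 0.65. ATG8 proteins coat the growing autophagosome membrane. ATG8H was at 7.99, 7.87 and 7.93 in mkk1/mkk2 and 6.52, 5.87 and 5.49 in Col-0, a difference of 1.97 ± 0.48. ATG8B rose by 1.61 ± 0.26, ATG8E by 0.97 ± 0.26 and ATG8D by 0.85 ± 0.20. Without Col-0 array C 3 of the 10 were called, and the ATG8E difference was 0.64 with an adjusted p of 0.0753. In the list of endoplasmic reticulum folding 2 of 12 genes rose, and both code for transcription factors of the unfolded protein response, BZIP28 (1.28 ± 0.24) and BZIP60 (0.93 ± 0.21). WRKY6, a transcription factor of senescence and defence, was at 8.74, 8.11 and 7.88 in mkk1/mkk2 and 4.97, 5.54 and 5.79 in Col-0, a difference of 2.81 ± 0.27.

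Of 17 measured auxin genes 3 rose, 2 fell and 12 did not pass. The 3 that rose code for GH3 enzymes, while GH3.9 and GH3.1 of the same family differed by 0.00 and -0.07 and did not pass. Besides GH3.3, WES1 (GH3.5), which joins auxin or salicylic acid to amino acids, was at 9.10, 9.02 and 9.01 in mkk1/mkk2 and 5.02, 5.04 and 5.20 in Col-0, a difference of 3.96 ± 0.24. GH3.17 rose by 2.93 ± 0.29. The auxin-response repressor gene IAA29 fell by 1.42 ± 0.38, and the other gene that fell had a smaller difference. The IAA29 adjusted p was 0.0535 without mkk1/mkk2 array A. Of 6 cytokinin response regulators 2 fell and 4 did not pass, and 0 fell without Col-0 array A or without mkk1/mkk2 array B.

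Enzymes that add or remove sugars gave some of the larger rises. Of 21 beta-glucosidases, which release sugars from stored glucosides, 6 rose, 3 fell and 12 did not pass. BGLU31 was at 7.44, 7.75 and 7.47 in mkk1/mkk2 and 3.37, 3.16 and 3.16 in Col-0, a difference of 4.32 ± 0.48. BGLU45 and BGLU46, enzymes of lignin precursors, rose by 3.01 ± 0.37 and 2.65 ± 0.46. PYK10 (BGLU23), the main protein of root endoplasmic reticulum bodies, was at 9.40, 9.71 and 9.07 in mkk1/mkk2 and 7.24, 5.16 and 3.53 in Col-0, a difference of 4.08 ± 0.92. Its Col-0 arrays spanned more than 3 units, yet all lay below the mutant arrays. PYK10 was also one of the 2 measured genes in a list of 10 root markers. The other root marker, the root-hair expansin EXPA7, named after its values were seen, was at 4.21, 3.99 and 3.70 in mkk1/mkk2 and 4.08, 4.31 and 4.06 in Col-0, a difference of -0.18 that did not pass. The part of root tissue in the sample was not tested.

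UDP-glycosyltransferases, which attach sugars to hormones and secondary metabolites, gave 13 rises and 4 falls among 47, with 1 to 10 falls over the alternative settings and 1 without mkk1/mkk2 array B or C. UGT73D1 rose by 3.07 ± 0.27, UGT87A2 by 2.21 ± 0.28 and UGT73B5 by 2.03 ± 0.21. Of 23 cytochromes P450 1 rose (CYP71B6, 1.02 ± 0.17) and 4 fell, the largest fall being that of CYP71B34 (-1.34 ± 0.21). Glutathione transferases, detoxifying enzymes, gave 5 falls among 14 and 9 that did not pass. GSTU20 was at 9.82, 10.10 and 9.70 in mkk1/mkk2 and 11.65, 11.57 and 11.43 in Col-0, a difference of -1.68 ± 0.17. GSTU23, GSTU26 and GSTU18 fell by 1.58, 1.32 and 1.31. Methionine sulfoxide reductases moved both ways within a list of 7 redox genes, of which 2 rose and 3 fell. MSRB9 was at 10.62, 10.72 and 10.54 in mkk1/mkk2 and 7.76, 7.20 and 6.98 in Col-0, a difference of 3.31 ± 0.38, while MSRB5 (above) and MSRB6 (-1.33 ± 0.24) fell. The zinc-finger factor STZ was the other gene that rose, by 1.5 ± 0.45, with an adjusted p of 0.0844 without Col-0 array C and 0.0756 without mkk1/mkk2 array A.

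**Figure D2:**
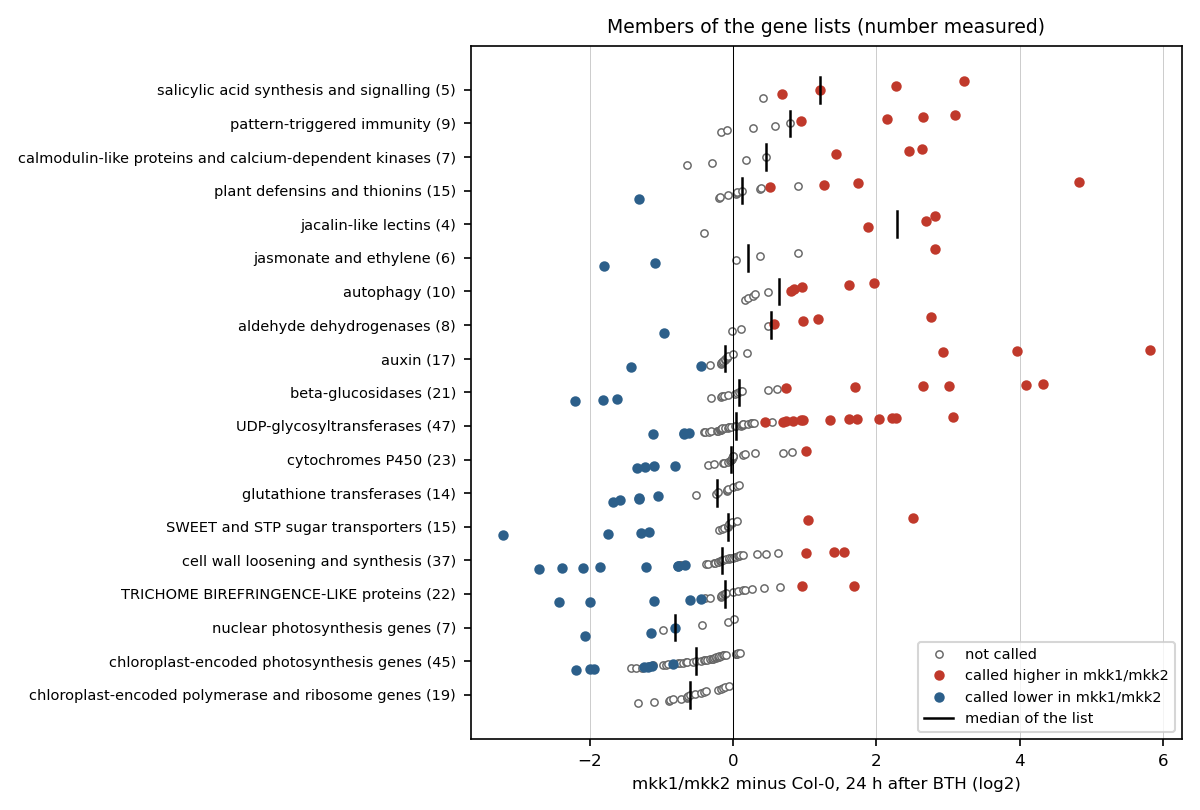
Difference mkk1/mkk2 minus Col-0 24 h after BTH (log2, x axis) of each measured gene in 19 gene lists, with the number measured in brackets. Red points were called higher and blue points lower in mkk1/mkk2, open points were not called, and black lines are list medians; GH3 genes reach 5.81, while the chloroplast-encoded photosynthesis genes have a median of -0.52.

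Of 7 nuclear photosynthesis genes 3 fell and 4 did not pass, and 5 fell without Col-0 array A. LHCB4.3, an antenna protein of photosystem II, was at 8.11, 8.44 and 8.24 in mkk1/mkk2 and 9.89, 10.46 and 10.62 in Col-0, a difference of -2.06 ± 0.22. SBPASE, an enzyme of the Calvin cycle, fell by 1.15 ± 0.28, and PSAN, a photosystem I subunit, by 0.81 ± 0.18. Chloroplast-encoded photosynthesis genes gave 7 falls among 45 and a median of -0.52. Over the 35 alternative settings the number of falls ran from 3 (without Col-0 array B) to 29 (with array weights), and it was 4 without mkk1/mkk2 array B or C. The mean level over the chloroplast-encoded photosynthesis genes was 9.10, 9.01 and 9.08 in mkk1/mkk2 and 9.41, 9.997 and 9.75 in Col-0, without overlap. Such means are not given here for the other lists, and arrays did not overlap in 39.2% of all probe sets. The ATP synthase subunit gene atpI fell by 2.19 ± 0.52, ndhK and ndhJ of the NADH dehydrogenase-like complex by 2.00 ± 0.54 and 1.93 ± 0.43, and psaI of photosystem I by 1.24 ± 0.25. For ndhK the adjusted p was 0.0706 without Col-0 array B and 0.0521 without mkk1/mkk2 array A. The 19 chloroplast-encoded polymerase and ribosome genes had a median of -0.60, and limma called 0 of them, with 3 lower at an unadjusted p under 0.05. In the alternative settings 0 to 10 of these 19 were called lower, with 1 lower without Col-0 array A. Among 16 mitochondrion-encoded genes, with a median of 0.08, limma also called 0, and 0 passed at an unadjusted p under 0.05.

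Cell wall genes gave 3 rises and 8 falls among 37. The 4 largest falls belonged to wall-loosening proteins. XTH32, which cuts and rejoins xyloglucan, was at 7.37, 7.54 and 6.97 in mkk1/mkk2 and 10.28, 9.94 and 9.76 in Col-0, a difference of -2.70 ± 0.28. The expansins EXPB1, EXPA8 and EXPA16 fell by 2.39 ± 0.30, 2.09 ± 0.35 and 1.85 ± 0.52. EXPA16 was uneven in Col-0, at 4.24, 4.45 and 4.24 in mkk1/mkk2 and 5.72, 5.08 and 7.68 in Col-0. Without Col-0 array C its difference was -1.09 and its adjusted p 0.0925. TRICHOME BIREFRINGENCE-LIKE proteins, most of which acetylate wall polysaccharides, gave 2 rises and 5 falls among 22, with TBL26 at -2.43 ± 0.45, TBL28 at -1.99 ± 0.16 and TBL38 at 1.69 ± 0.22. Among 8 cell cycle and histone genes limma called 0, with 3 lower at an unadjusted p under 0.05 and 2 called lower without Col-0 array C.

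Sugar transporters of the SWEET and STP families gave 2 rises and 4 falls among 15. SWEET13 (above), SWEET17 (-1.74 ± 0.24), a fructose carrier of the vacuole, and SWEET4 (-1.29 ± 0.32) fell. SAG29 (SWEET15), a sucrose exporter of senescing leaves, was at 8.66, 7.55 and 7.56 in mkk1/mkk2 and 6.02, 5.18 and 5.02 in Col-0, a difference of 2.52 ± 0.37. Family members thus moved in opposite directions. SAG29 was free of overlap, and so was SWEET13, for which the naming rule required it.

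Aliphatic glucosinolate genes, which make sulfur-rich defence compounds, gave 1 rise and 2 falls among 4. BCAT4, the first enzyme of methionine chain elongation, was at 8.15, 8.22 and 7.90 in mkk1/mkk2 and 10.53, 10.81 and 10.44 in Col-0, a difference of -2.50 ± 0.33. AT2G31790 fell by 1.14 ± 0.24, and the transporter GTR2 rose by 0.89 ± 0.30 (adjusted p = 0.036). Leaving out any 1 of the 6 arrays took GTR2 past the threshold, to at most 0.106. In the list of abscisic acid, cold and dehydration 4 of 8 genes rose and 2 fell. LEA4-5, a late embryogenesis abundant protein, rose by 2.31 ± 0.44 and RD2 by 0.96 ± 0.18, while the cold-regulated chloroplast proteins COR15A and COR15B fell by 1.91 ± 0.44 and 1.52 ± 0.40. Of 8 aldehyde dehydrogenases, which clear reactive aldehydes, 4 rose and 1 fell. ALDH7B4 was at 11.24, 10.82 and 10.84 in mkk1/mkk2 and 8.04, 8.08 and 8.50 in Col-0, a difference of 2.76 ± 0.17. ALDH6B2 and ALDH2C4 rose by 1.18 ± 0.18 and 0.97 ± 0.19, and ALDH3F1 fell by 0.96 ± 0.24. Fitted to the 12 Col-0 and mkk1/mkk2 arrays alone, ALDH3F1 had an adjusted p of 0.0567.

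Most differences seen after BTH were also present between untreated plants. The untreated comparison used 3 other mkk1/mkk2 arrays and 3 other Col-0 arrays, and in it 7573 probe sets were called (33.3%). Untreated Col-0 is titled Time 0 and untreated mkk1/mkk2 carries no time, so genotype and harvest time cannot be told apart there. Of the 2591 probe sets higher after BTH, 2052 (79.2%) were also called higher in untreated mkk1/mkk2, and of the 2327 lower, 1960 (84.2%) were also called lower. Both calls share 1 estimate of spread, and the overlap was counted in this fit only. With the replicate letters as a block in a fit of only the groups compared, fewer were called in untreated plants. There 1612 were higher and 1580 lower in untreated plants, against 2656 and 2314 after BTH, so shares this large are not possible there. Across the 22746 probe sets, which are not independent replicates, the differences after BTH and in untreated plants correlated at r = 0.832. In the other direction, 53% of the probe sets called in untreated plants were called with the same sign after BTH. OSM34 differed by 6.56 in untreated plants, GH3.3 by 5.81, SBT3.3 by 2.8, BIK1 by 2.73 and AT1G73600 by -5.03, each close to its value after BTH.

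**Figure D3:**
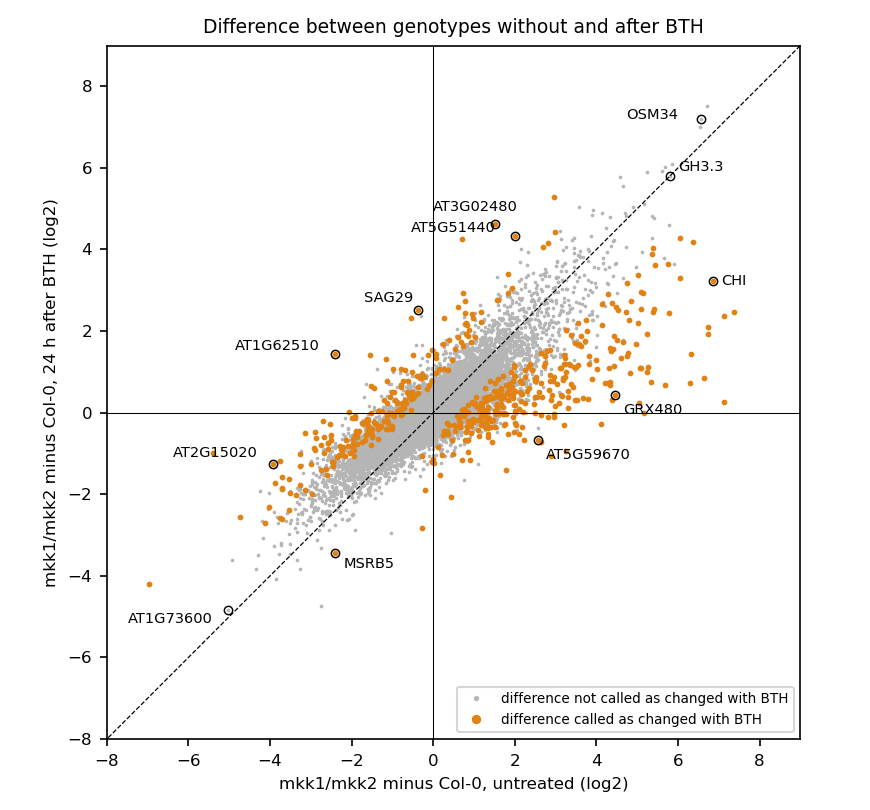
Difference mkk1/mkk2 minus Col-0 24 h after BTH (log2, y axis) against that in untreated plants (log2, x axis) for 22746 probe sets; orange points are the 531 whose difference was called as changed with BTH, circles are named genes and the dashed line marks equal differences. OSM34, GH3.3 and AT1G73600 lie near the line, while CHI and GRX480 lie far below it.

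Whether the genotype difference itself changed with BTH was tested as an interaction, and 531 probe sets were called (2.33%), 213 with a positive (0.936%) and 318 with a negative change (1.4%). The count was 889 without untreated mkk1/mkk2 array A, 345 without Col-0 array B after BTH and 348 without mkk1/mkk2 array A after BTH. Of the 198 probe sets higher after BTH with a called interaction, 125 had a smaller and 45 a larger difference after BTH than untreated, and 28 had the opposite sign in untreated plants. Of the 96 lower ones, 66 were smaller, 5 larger and 25 opposite.

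The largest negative changes named here were in genes already higher in untreated mkk1/mkk2 than in untreated Col-0. MSRB5 (-2.41 in untreated plants) and CYP71B36, with smaller negative changes, did not follow this pattern. For any gene still higher after BTH, a negative change requires a larger difference in untreated plants. The pattern is therefore no separate result for such genes. CHI was at 11.11, 11.78 and 11.91 in untreated mkk1/mkk2 and 5.23, 4.39 and 4.63 in untreated Col-0, a difference of 6.85. The CHI difference was thus smaller after BTH by 3.62 ± 0.40 (adjusted p = 1.9e-05). GRX480 was at 10.17, 10.04 and 10.42 in untreated mkk1/mkk2 and 5.85, 5.69 and 5.74 in untreated Col-0. Its difference changed by -4.03 ± 0.33 with BTH (adjusted p = 4.5e-07). The GRX480 difference was 0.42 after BTH, against 4.45 in untreated plants. MSRB9 changed by -2.75 ± 0.54, with a difference of 6.06 in untreated plants. AT3G01830, AT1G72060, AT1G35710 and AT1G65500 changed by -3.35, -3.31, -3.30 and -2.93, and each remained higher in mkk1/mkk2 after BTH, by 1.39, 1.92, 1.68 and 1.73. For AT1G35710 the difference after BTH was 1.07 without Col-0 array A, its adjusted p was 0.0605 in the fit of only the groups compared, and that of its change was 0.0567 with a replicate block in that fit.

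AT5G59670 turned round. It was at 6.34, 6.95 and 6.62 in mkk1/mkk2 and 6.93, 7.27 and 7.75 in Col-0 after BTH, a difference of -0.68 ± 0.24 (adjusted p = 0.05, just inside the threshold before rounding). In untreated plants it was at 6.22, 7.05 and 6.60 in mkk1/mkk2 and 4.15, 3.79 and 4.22 in Col-0, a difference of 2.57. The mutant levels were alike with and without BTH, and the Col-0 levels were not. The change of -3.25 ± 0.34 had an adjusted p of 1.1e-05. The fall after BTH lost its call in 23 of 35 alternative settings, with an adjusted p of up to 0.223, and its arrays overlapped.

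The positive changes included SAG29 and LEA4-5 beside genes with only a locus name. AT3G02480 was at 6.24, 4.94 and 6.23 in untreated mkk1/mkk2 and 4.65, 4.22 and 3.96 in untreated Col-0, so that its difference changed by 3.11 ± 0.68 with BTH (adjusted p = 0.016). SAG29 was at 7.50, 5.97 and 7.49 in untreated mkk1/mkk2 and 7.52, 7.15 and 7.41 in untreated Col-0. Its difference was -0.37 in untreated plants and changed by 2.89 ± 0.53 with BTH (adjusted p = 0.0038). LEA4-5 changed by 2.86 ± 0.63, with a difference of -0.55 in untreated plants. Fitted to the 12 Col-0 and mkk1/mkk2 arrays alone, these 3 changes had adjusted p-values of 0.146, 0.0577 and 0.155.

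AT5G51440 rose by 4.32 ± 0.32 after BTH, against 2.00 in untreated plants, and Fes1A, a co-chaperone of heat-shock proteins, rose by 2.75 ± 0.34 after BTH, against 0.78. The changes were 2.32 ± 0.46 and 1.97 ± 0.48, and in the fit of the 12 arrays their adjusted p-values were 0.119 and 0.196. ALDH7B4 changed by 1.2 ± 0.24. Among single-gene probe sets also called after BTH, AT1G62510 had the largest positive change, 3.84 ± 0.72, since it was at 8.10, 6.10 and 6.85 in untreated mkk1/mkk2 and 9.24, 9.06 and 9.95 in untreated Col-0, against 8.67, 7.62 and 6.92 in mkk1/mkk2 and 5.98, 6.27 and 6.65 in Col-0 after BTH. Its own rise after BTH, 1.44 ± 0.51 (adjusted p = 0.049), lost its call in 23 of 35 alternative settings. AT2G15020 and AT3G28270 were lower in mkk1/mkk2 in both states, by 1.25 and 1.17 after BTH and by 3.93 and 3.76 in untreated plants. Without Col-0 array C their falls after BTH were -0.98 (adjusted p = 0.143) and -0.74 (adjusted p = 0.235). AT2G15020 lost its call after BTH on leaving out any 1 of the 6 arrays after BTH other than Col-0 array A, and AT3G28270 in 18 of 35 alternative settings.

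The single mutants after BTH were set beside the double mutant for the leading genes. This comparison shares the mkk1/mkk2 arrays with the one against Col-0, so values are given side by side without counting overlap. The bioC minus bioD control difference was -2.505 to -2.40 in mkk1/mkk2 and -2.265 to -2.155 in Col-0 after BTH, but -3.82 to -3.54 on the mkk1 and mkk2 arrays. The labels name no array set, and whether the single-mutant arrays were run apart is not stated. Such a difference between arrays could not be told apart from genotype in this comparison. The smaller control difference between mkk1/mkk2 and Col-0 after BTH was also without overlap, and its part in the main comparison was not tested. OSM34 was at 4.87, 4.47 and 4.27 in mkk2 and 4.44, 4.69 and 3.94 in mkk1, and mkk1/mkk2 lay 6.82 above their mean (the difference from Col-0 was 7.20). GH3.3 was at 5.44, 5.14 and 5.26 in mkk2 and 4.64, 5.48 and 5.05 in mkk1, against 3.92 to 4.26 in Col-0, with mkk1/mkk2 4.73 above the single mutants. Both single mutants stayed far below the double mutant for these genes.

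MSRB5 was at 9.45, 9.33 and 8.96 in mkk2 and 9.81, 9.69 and 9.22 in mkk1, with mkk1/mkk2 3.03 below. SWEET13 was at 5.76, 5.08 and 5.7 in mkk2 and 7.01, 5.95 and 5.65 in mkk1, with mkk1/mkk2 1.65 below their mean and 3.21 below Col-0. For SWEET13 the single mutants therefore lay between the double mutant and Col-0 on most arrays. CHI was at 9.30, 9.56 and 9.51 in mkk2 and 8.64, 9.36 and 8.85 in mkk1, with mkk1/mkk2 3.06 above their mean. AT1G35710 was at 9.08, 8.79 and 9.34 in mkk2 and 9.11, 8.67 and 8.72 in mkk1, and mkk1/mkk2 was 0.75 ± 0.35 above them (adjusted p = 0.13).

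**Figure D4:**
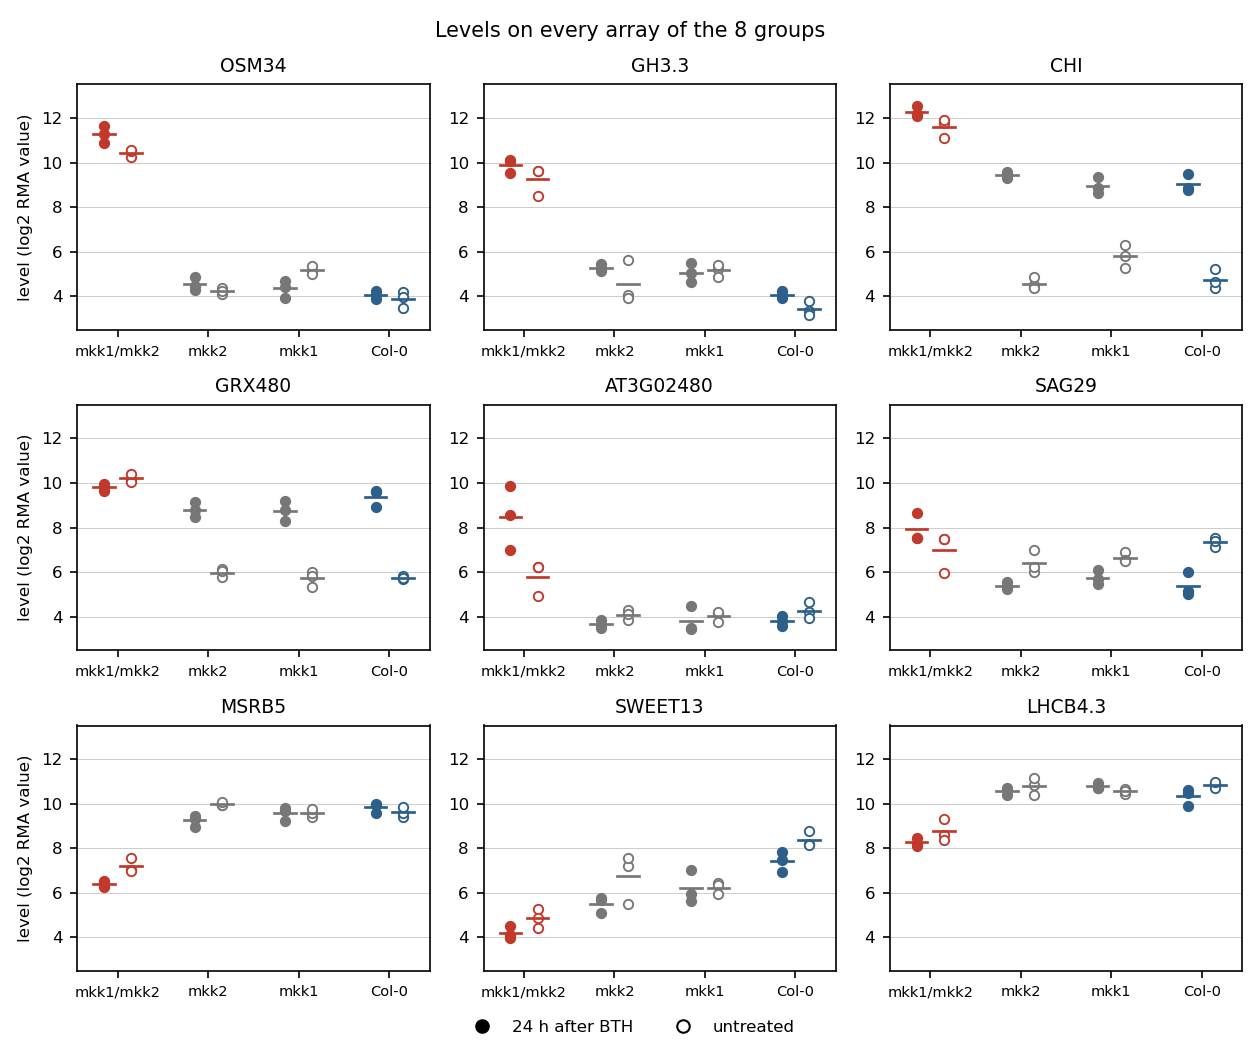
Levels (log2 RMA value, y axis) of 9 genes in mkk1/mkk2, mkk2, mkk1 and Col-0 (x axis), with filled points for arrays 24 h after BTH and open points for untreated arrays; bars are means of 3 arrays. For OSM34 and GH3.3 the mkk1/mkk2 arrays lie above those of the other genotypes in both states, and for MSRB5 and LHCB4.3 below them, while GRX480 lies between 8.31 and 9.97 in all 4 genotypes after BTH.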

How the data were processed

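RNA of 24 samples (8 groups of 3) had been measured on ATH1 arrays. The authors deposited log2 values summarised with RMA, per the submitters' processing notes, with 22810 probe sets an array; background correction settings are not given in the sources used here. The 64 control probe sets were left out of the tests. Gene names came from the platform annotation updated through RefSeq (TAIR10.1), and 13513 probe sets had 1 gene symbol; each gene is given by its probe set with the highest mean. The 8 group means were estimated over all 24 arrays by lmFit and eBayes of limma 3.58.1, run in R 4.3.3, and two-sided p-values were adjusted by Benjamini-Hochberg over 22746 probe sets. The number of arrays limits the precision. The test was tried on simulated data before use.

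Named genes are the 12 largest rises and 12 largest falls without overlapping arrays, for each list its 4 called genes furthest from 0 (fewer where fewer were called), the 6 largest interaction values of each sign among genes called after BTH, and 16 fixed genes, of which 3 had a single-gene probe set. Members and lists were chosen with earlier results of these data known, and 21 of 65 lists were added after the annotation was seen. Of 439 list genes given by locus, 72 were measured. Replicate letters A to C were checked for pairing: same-letter deviations of mkk1/mkk2 and Col-0 after BTH correlated at 0.14, 0.07 and 0.07. Different-letter deviations correlated at -0.14 to 0.11. These values do not settle whether the letters are pairs. The main fit did not use them as pairs, and a replicate block was tried as an alternative. Alternatives covered the arrays in the fit, normalization, filters, array weights and leaving out each array.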

Additional observations from a re-analysis of the deposited data

Results flagged for a closer look

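For 20 genes named in the report or chosen with them, the difference between mkk1/mkk2 and Col-0 changed with BTH by the interaction test of limma. Of these 20 calls, 8 held in every one of 35 alternative settings and 12 were lost in some, among them CYP71B36 in 19 (adjusted p up to 0.185), MSRB5 in 15 (up to 0.19), TBL28 in 10 (up to 0.114) and Fes1A in 9 (up to 0.267). Values are the difference after BTH minus the difference in untreated plants, in log2 units. Negative values were found for GRX480 (-4.03), CHI (-3.62), AT3G01830 (-3.35), AT1G72060 (-3.31), AT1G35710 (-3.30), AT5G59670 (-3.25), AT1G65500 (-2.93), MSRB9 (-2.75), CYP71B36 (-1.25) and MSRB5 (-1.04). Positive values were found for TBL28 (0.97), ALDH7B4 (1.2), Fes1A (1.97), AT5G51440 (2.32), AT3G28270 (2.59), AT2G15020 (2.68), LEA4-5 (2.86), SAG29 (2.89), AT3G02480 (3.11) and AT1G62510 (3.84). CYP71B36, a cytochrome P450, differed by -1.23 after BTH and by 0.02 in untreated plants. TBL28 was lower in mkk1/mkk2 in both states. The untreated groups differ in how their harvest time is labelled, and the part of harvest time in these changes cannot be told apart from genotype.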

How the results depend on the processing

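Of 120 named genes, 117 were called after BTH, and 99 of them kept their call and direction in every one of 35 alternative settings (11 other choices and 24 fits that left out 1 array each), while 0 reversed. Most of these genes were named because they were called, so the 117 does not show how common calls are. Most of the 24 fits left out an array outside the 6 compared. Those fits leave the difference after BTH unchanged and alter only its spread. After BTH the count of 4918 ranged from 3770 (without mkk1/mkk2 array B after BTH) to 6351 (without untreated mkk1/mkk2 array A) when 1 array was left out, with 2028 to 3191 higher and 1742 to 3160 lower. The same fits gave 6351 to 8208 in untreated plants, 345 to 889 for the change with BTH and 3764 to 7088 against the single mutants. A fit of only the groups compared gave 4183 in untreated plants, 258 for the change with BTH and 8428 against the single mutants, and the 12 Col-0 and mkk1/mkk2 arrays gave 258 for the change. The replicate letters are known here only as labels. With them as a replicate block over all arrays 5059 probe sets were called after BTH. Within the groups compared the block gave 4970 after BTH, 3192 in untreated plants, 274 for the change and 8141 against the single mutants. Array weights gave 9417 after BTH (4637 higher, 4780 lower), 1710 for the change and 10388 against the single mutants; they were estimated gene by gene, chosen after seeing the data because the default estimate did not converge. With 1 probe set per gene, which tests fewer features, the counts were 2500 after BTH (1203 higher, 1297 lower), 3963 in untreated plants, 284 for the change and 2687 against the single mutants. Without the 3 arrays that stood apart the change gave 1083 and the single mutants 8014. Apart from the smaller number of features tested, the cause of these shifts was not tested. The number of arrays limits what can be called.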

Other observations

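Further gene families held named changes after BTH. Of 8 glutamate receptor-like channels, which carry calcium across membranes, 3 rose and 1 fell, with ATGLR1.2 at 1.79 ± 0.15 and GLR2.8 at 0.76 ± 0.13. Of 17 RALF-like and CLE signalling peptides 1 rose and 4 fell (1 to 9 falls over the alternative settings, with 1 without Col-0 array A and 7 without Col-0 array C), with RALFL22 at -1.04 ± 0.24 and RALFL18 at 0.77 ± 0.12. Of 19 genes of vesicle traffic 4 rose and 1 fell, and the exocyst subunits SEC6 and SEC15A rose by 1.14 ± 0.30 and 0.997 ± 0.19. In the list of sulfate metabolism, 2 of 3 measured genes rose and 1 fell, with 1 to 2 rises over the alternative settings. OASA2, annotated in the O-acetylserine (thiol) lyase family of cysteine synthesis, rose by 2.19 ± 0.19, and whether its product is active was not tested. The ATP sulfurylase APS3 fell by 2.18 ± 0.33, while APS4 of the same family rose by 1.07. Of the 30 genes nearest to MKK1 on its chromosome 13 were measured, and 3 were higher and 0 lower after BTH. Of the 30 nearest to MKK2, 11 were measured, and 1 was higher and 0 lower. Over all 13355 genes, 9.24% were called higher and 10% lower. AT4G26060, next to MKK1, rose by 1.53 ± 0.17 after BTH and was 2.85 higher in untreated mkk1/mkk2. Any link to the position of the mutation was not tested.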
